A study of Homo sapiens with 4 samples.

Results

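The regions described here are H4K20me3 peaks in gene deserts, the stretches of the genome that lie far from any protein-coding gene. By rule, a gene desert peak lay on chromosomes 1 to 22 without chromosome 19 and more than 100 kb from every coding gene body. It also lay in no annotated pseudogene, more than 3 Mb from a centromere gap of the hg19 build and more than 1 Mb from a chromosome end. Satellite sequence farther from the gap was not barred. Of the 38371 peaks of the PRO and RS lists, 9241 met this rule. They were 8762 of the 35535 RS peaks (24.7%) and 479 of the 2836 PRO peaks (16.9%). The rule used position and annotation and no measured value.

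The peaks come from chromatin immunoprecipitation and sequencing (ChIP-seq) of histone H4 trimethylated at lysine 20 in IMR90 cells, fibroblasts from human lung that stop dividing after a number of passages. Dividing cultures at population doubling 32 (PRO) were set beside cultures at population doubling 86 that had ceased to divide after prolonged passage, which is replicative senescence (RS). An immunoprecipitation with each of 2 antibodies makes up the 2 samples of a group, and the group is represented by 1 list of regions called with both of them. Both groups are untreated cultures of 1 cell line and carry no transgene. A further list (DiffBind) holds 18711 regions whose H4K20me3 signal was called different between the states at a false discovery rate of 0.01, without the direction of the change. It has fewer regions than the study describes, and the values below hold for these regions.

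H4K20me3 is written mainly by the SUV420H enzymes on nucleosomes already marked by H3K9me3, and it is known from the silent chromatin of satellite repeats, chromosome ends and retrotransposons. Gene deserts hold few coding genes but many long non-coding RNA genes, distant enhancers of developmental genes and the remains of transposable elements. L1 elements are retrotransposons that carry an internal promoter in their 5′ end and encode in ORF2 the reverse transcriptase that copies them; Alu elements are short retrotransposons that borrow this enzyme. The long terminal repeats (LTRs) of endogenous retroviruses hold the promoter of the former virus, and LTR12 is that of the HERV9 family.

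With 1 list for a group, the values below have no spread between samples, no interval and no test, and the lists carry no depth. Library read numbers were not used here. A difference between PRO and RS in the number or length of peaks is a difference between 2 lists, and a difference in enrichment, depth or antibody efficiency cannot be told apart in it.

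Stretches of 2 gene desert peaks, the longest of each list, are printed first. The 2 peaks differ in the kind of sequence they hold, although PRO peaks also covered 86.5% of the longest RS peak. Both stretches are from the plus strand of the hg19 (GRCh37) build. The first is the middle of the longest RS peak, at chr16:46410902-46411021, with the satellite unit TCCAT in capitals. The second is the middle of the longest PRO peak, at chr4:132673502-132673621, with CpG dinucleotides in capitals.
Longest RS peak: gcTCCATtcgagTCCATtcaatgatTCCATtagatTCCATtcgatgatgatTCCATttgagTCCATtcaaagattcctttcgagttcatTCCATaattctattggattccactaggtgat
Longest PRO peak: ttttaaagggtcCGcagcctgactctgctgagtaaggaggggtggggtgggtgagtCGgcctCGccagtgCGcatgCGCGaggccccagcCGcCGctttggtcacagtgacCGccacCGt

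To determine how much of the desert carried H4K20me3 in each state, the covered bases were counted. Gene deserts made up 662 Mb of the 2629 Mb of known sequence on these chromosomes, 25.2%. RS peaks covered 8.16 Mb of them (1.23%) and PRO peaks covered 0.496 Mb (0.0748%). The RS list held 18.3 times as many gene desert peaks as the PRO list and 16.5 times their length, against 11.6 and 10.1 times for the other peaks on the same chromosomes. Those other peaks include peaks in the centromere flanks, chromosome ends and pseudogenes that the rule bars from desert. With this barred sequence left out, RS peaks covered 18.4 times the bases of PRO peaks inside coding genes. Within 100 kb of a coding gene they covered 16.9 times. Per Mb, RS peaks covered 12327 bases of desert and 11916 bases elsewhere, a ratio of 1.03. PRO peaks covered 748 bases per Mb of desert and 1175 elsewhere, a ratio of 0.637. Elsewhere is all other known sequence of these chromosomes, the barred sequence included. With the barred sequence left out, PRO peaks covered 389 bases per Mb inside coding genes and 763 within 100 kb of one. RS peaks covered 7148 and 12904 bases per Mb there. The ratios of 1.03 and 0.637 thus do not set desert against genic and near-gene sequence alone. The RS ratio was 0.935 with a minimum length of 1000 bp and 1.45 without peaks that held a repeated 75-base sequence. In all peaks, desert and all sequence outside it, the barred sequence included, thus had near equal RS coverage. With the barred sequence left out, RS coverage of desert was above that inside coding genes and near that within 100 kb of one. Peaks with a repeated 75-base sequence were 39.1% of RS peaks in desert and 50.3% of the other RS peaks. For the value of 1.45 such peaks were left out whole, while repeated sequence stayed in the known bases. It is therefore not the coverage of unrepeated sequence.

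A few deserts beside large runs of unknown sequence, mainly on chromosomes 1, 2, 9 and 16, decided much of the PRO values. These 22 deserts, each within 3 Mb of a run of at least 1 Mb of unknown bases, held 0.686% of the desert sequence but 164 of the 479 PRO gene desert peaks (34.2%) and 43.8% of their bases. They held 254 of the RS peaks (2.9%) and 4.89% of their bases. In these deserts RS peaks covered 1.84 times the bases of PRO peaks, and in all others 27.9 times, with 8508 RS peaks to 315 PRO peaks. With these deserts counted as elsewhere, the ratio of PRO density in desert to that elsewhere was 0.33. With sequence near the unknown runs and the barred sequence dropped altogether, PRO coverage was 0.0384% inside coding genes and 0.0742% within 100 kb of one. In the distance steps of desert it then lay between 0.0262% and 0.0846%.

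RS gene desert peaks were mostly short. Their median length was 801 bp (quartiles 601 and 1201 bp) and the longest was 50201 bp. PRO gene desert peaks had a median of 601 bp (quartiles 401 and 1001 bp) and a longest of 25801 bp. The other peaks on these chromosomes had the same medians, 801 bp in RS and 601 bp in PRO. Peaks of at least 2000 bp were 415 of the RS members (4.74%) and 38 of the PRO members (7.93%). Peaks of 1 base numbered 127 in RS and 9 in PRO.

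Coverage by RS peaks hardly changed with distance from coding genes once outside them. All steps, that inside coding genes included, leave out the centromere flanks, chromosome ends and pseudogenes barred by the rule. RS peaks covered 0.715% of the sequence inside coding genes, 1.29% within 100 kb of one, 1.28% at 100 to 200 kb, 1.24% at 200 to 500 kb, 1.29% at 500 to 1000 kb and 1.12% beyond 1000 kb. The DiffBind regions took another course, and their share of the sequence went from 1.41% within 100 kb to 1.11%, 0.843%, 0.834% and 0.759% over the same 4 steps. PRO peaks covered between 0.0652% and 0.0859% in the steps from 0 to 1000 kb, and 0.121% beyond. Of the PRO bases beyond 1000 kb, 55.5% lay in 4 peaks of 1 desert on chromosome 4, between C4orf33 and PCDH10. With all sequence within 3 Mb of these large unknown runs left out, PRO coverage was 0.0759% at 100 to 200 kb, 0.0334% at 200 to 500 kb and 0.0262% at 500 to 1000 kb. RS coverage in these steps was then 1.26%, 1.19% and 1.21%, so the ratio of RS to PRO coverage was 16.7, 35.6 and 46.1. Beyond 1000 kb it was 12.0, with RS at 1.02% and PRO at 0.0846%. The 4 peaks of chromosome 4, together 42.0 kb long, were still part of this PRO value.

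**Figure D1:**
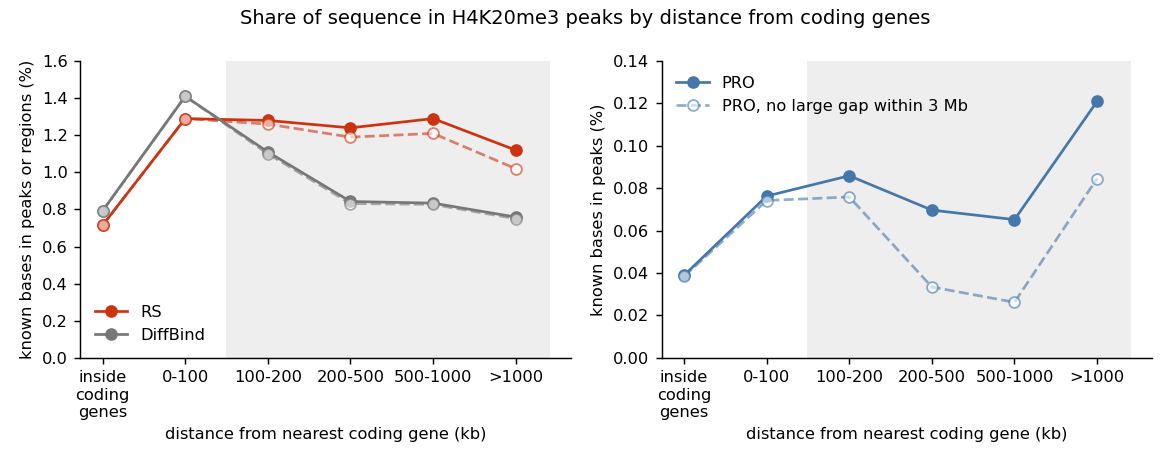
Share of known sequence covered by RS and DiffBind regions (left, y axis, percent) and by PRO peaks (right, y axis, percent, on a smaller scale) by distance from the nearest protein-coding gene (x axis, kb). Solid lines are all sequence except the centromere flanks, chromosome ends and pseudogenes barred by the rule. Broken lines also leave out sequence near large runs of unknown bases, and grey marks the distances of gene deserts. RS coverage stays between 1.02% and 1.29% at every distance outside genes, while DiffBind coverage goes from 1.41% within 100 kb to 0.759% beyond 1000 kb.

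Peaks just outside and just inside the distance limit were compared in number and length. The 376 RS peaks at 90 to 100 kb from a coding gene and the 343 at 100 to 110 kb both had a median length of 801 bp, and the corresponding PRO peaks numbered 18 and 14 with medians of 601 and 701 bp. Within the desert, the median distance to a coding gene was 325 kb for RS members and 373 kb for PRO members. RS members beyond 1 Mb numbered 744 (8.49%), the farthest at 2370 kb, and PRO members beyond 1 Mb numbered 46 (9.6%).

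To determine which gene desert peaks were called different between the states, the lists were overlapped, counting 1 shared base. Of the RS gene desert peaks, 3067 (35.0%) lay over a DiffBind region, where the share over all RS peaks was 44.8%. Of the PRO gene desert peaks, 23 (4.8%) lay over a DiffBind region, against 11.4% of all PRO peaks. The DiffBind list held 3825 regions that met the same rule, and 2830 of them (74.0%) lay over an RS peak, close to the 73.4% over all DiffBind regions. Only 23 of them (0.601%) lay over a PRO peak, against 1.38% of all. These overlaps use lists made from the same 4 samples and are descriptions. The share of RS members over DiffBind regions was 37.3% when the desert began at 50 kb and 32.4% when it began at 500 kb.

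PRO and RS lists shared few gene desert peaks. RS peaks over a PRO peak numbered 204 (2.33%, against 3.84% of all RS peaks), with a median length of 1201 bp against 801 bp for the others. PRO peaks over an RS peak numbered 221 (46.1%, against 54.8% of all PRO peaks), with a median of 801 bp against 401 bp for the 238 PRO peaks that lay over neither RS nor DiffBind regions. Most RS gene desert peaks, 5494 (62.7%), lay over neither a PRO peak nor a DiffBind region. Another 3064 lay over a DiffBind region alone, 201 over a PRO peak alone and 3 over both. With the deserts beside large unknown runs left out, 1.5% of RS peaks lay over a PRO peak.

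RS gene desert peaks were spread over nearly all large deserts. The rule cut the genome into 1386 deserts with a median of 226 kb, of which 1005 (72.5%) held an RS peak and 204 (14.7%) a PRO peak. Of the 414 deserts with at least 500 kb of known sequence, 412 held an RS peak and 139 a PRO peak. Across these 414, RS peaks covered a median of 1.06% (quartiles 0.718% and 1.42%). The 10 deserts with most RS bases held 8.75% of all RS gene desert bases, whereas the 10 with most PRO bases held 69.3% of those of PRO. Neighbouring RS peaks lay a median of 41.8 kb apart, and 25.9% of the gaps were within 10 kb. Neighbouring PRO peaks lay a median of 150 kb apart.

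**Figure D2:**
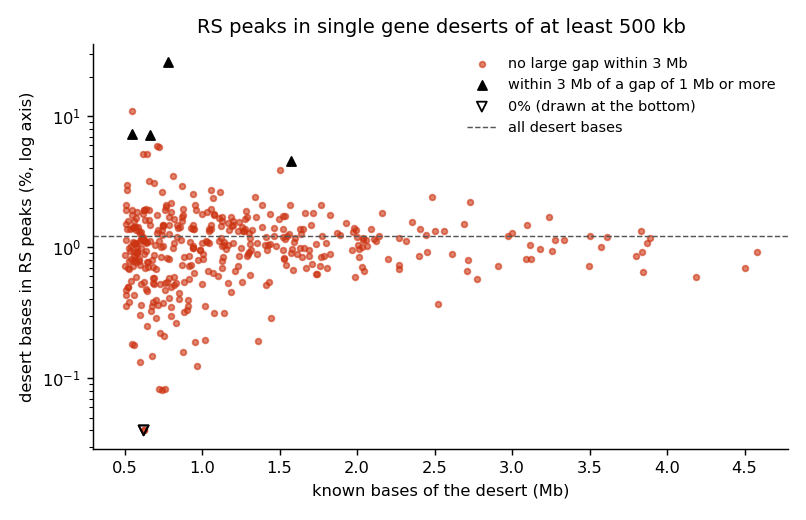
Share of a desert covered by RS peaks (y axis, percent, log scale) against its known length (x axis, Mb) for the 414 deserts of at least 500 kb, 1 point a desert. Black triangles are deserts beside large unknown runs, an open triangle at the bottom marks a share of 0, the broken line is the 1.23% of all desert sequence, and the middle 50% of the deserts lie between 0.718% and 1.42%.

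RS coverage of the 5 longest deserts ran from 0.588% to 1.17%, with 2 of them below the lower quartile of the 414. In the longest, 4579 kb of known sequence on chromosome 4 between the protocadherin gene PCDH7 and ARAP2, 48 RS peaks covered 0.928% and there was 1 PRO peak. The desert between AGA, a lysosomal enzyme gene, and the teneurin gene TENM3 (4502 kb, chromosome 4) held 33 RS peaks (0.699%). CELF4, an RNA-binding protein gene, and PIK3C3 on chromosome 18 bounded 4189 kb with 29 RS peaks (0.588%) and no PRO peak. The desert between OLFM4 and PRR20A on chromosome 13 (3889 kb) held 56 RS peaks (1.17%) and no PRO peak, and that between the cadherin genes CDH9 and CDH6 on chromosome 5 (3873 kb) held 44 RS and 2 PRO peaks (1.07% in RS).

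The deserts most densely covered in RS were of different kinds. Highest was the desert of chromosome 1 between FAM72B and PPIAL4G, with 129 RS peaks over 25.8% of its sequence and 88 PRO peaks, beside the large unknown run of that chromosome. Beside such runs also lay the desert between PLGLB1 and PLGLB2 on chromosome 2 (7.28%, 24 RS and 3 PRO peaks), and on chromosome 9 those between RP11-195B21.3 and FOXD4L6 (7.15%, 32 RS and 45 PRO peaks) and between SPATA31A7 and FAM27E3 (4.52%, 48 RS and 21 PRO peaks). The desert between CR769776.1 and FOXD4L5 on chromosome 9 reached 10.9%, with 43 RS and 9 PRO peaks.

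The other densely covered deserts held between 0 and 6 PRO peaks. Between GLRX3, a glutaredoxin gene, and TCERG1L on chromosome 10, 41 RS peaks covered 5.93% and there was no PRO peak. The desert between IRX2 and IRX1 on chromosome 5, a pair of Iroquois homeobox genes for developmental transcription factors, held 33 RS peaks (5.13%) and no PRO peak. Between TAFA5 and BRD1 on chromosome 22 there were 44 RS peaks (5.81%) and 2 PRO peaks, and DiffBind regions covered 33.2 kb. C1orf174 and AJAP1 on chromosome 1 bounded 36 RS peaks (5.14%) and 1 PRO peak. The desert between GALR1, a galanin receptor gene, and SALL3, a developmental zinc finger gene, on chromosome 18 held 57 RS peaks (3.89%) and 6 PRO peaks. PRO peaks covered 0.468% of it and 0.25% of the desert between TAFA5 and BRD1, against 0.0748% of all desert. RASGRP1 and THBS1 on chromosome 15, which enter the 10 highest once the deserts beside unknown runs are left out, bounded 30 RS peaks (3.51%) and no PRO peak.

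Deserts were grouped by the gene families on their flanks, among those of at least 500 kb, where 412 of all 414 held an RS peak. Neural adhesion and synapse genes, which join neurons and organise their contacts, flanked 86 deserts, and all 86 held an RS peak. RS peaks covered a median of 0.997% of them (range 0.0831% to 1.95%), against 1.06% of the other deserts. Developmental transcription factor genes flanked 38 deserts, of which 37 held an RS peak, with a median of 0.97% and a highest value of 10.9%, against 1.06% of the others. Zinc finger genes flanked 12, all with an RS peak and with a median of 1.16% against 1.04%. Olfactory receptor genes flanked 1 desert, at 0.529%. These differences in medians were not tested.

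The chromosomes differed more in PRO than in RS. RS peaks covered between 0.618% of the desert of chromosome 20 and 2.63% of that of chromosome 22. PRO peaks covered between 0.00204% on chromosome 21 and 0.317% on chromosome 16, where the longest RS member lies.

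The longest members held repeated sequence, and none of the 10 longest of either list touched a DiffBind region. The longest RS peak, chr16:46385801-46436001 between ENSG00000284209 and SHCBP1, was 50201 bp long and PRO peaks covered 86.5% of it. Its most frequent word of 5 bases on the plus strand was TCCAT, the repeat unit of the satellite II and III sequences beside human centromeres read from another starting base, which occurred 1553 times and made up 15.5% of its bases. Among the 10 longest RS peaks, those of chromosome 1 at chr1:142535401-142543201 and chr1:143432001-143439001 were covered by PRO peaks over 89.8% and 85.7% of their length. On chromosome 8, the peak chr8:86810601-86820201 beside REXO1L1 lay wholly within PRO peaks, whereas chr8:58118201-58127801 between BPNT2 and FAM110B touched none. All 10 held a sequence of 75 bases that occurs more than once in the genome, within the same peak or elsewhere.

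Of the 10 longest PRO peaks, 7 were covered by RS peaks over 88.9% to 100% of their length, among them those of chromosomes 1, 8 and 16, and the other 3 less. The longest, chr4:132660601-132686401 in the desert between C4orf33 and PCDH10, was 25801 bp long with a GC content of 63.7%, and RS peaks covered 6.21% of it. Its neighbour chr4:132644201-132659001 was 14801 bp long with a GC content of 63.6% and was covered to 17.6%. Both lie over 1 Mb from a coding gene. At chr2:87638401-87658601 between PLGLB1 and PLGLB2, a PRO peak of 20201 bp with a GC content of 66.2% was covered to 60.4%. In contrast, the PRO peaks inside the satellite block of chromosome 16 (24001 and 13001 bp, GC content 36.3% and 36.2%) lay wholly within its RS peak.

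To determine what the gene desert peaks share in sequence, their base composition was compared with that of the desert around them. The desert had a GC content of 37.8%, RS gene desert peaks 50.0% and PRO gene desert peaks 49.7%. The other peaks of the same chromosomes stood at 49.6% in RS and 51.5% in PRO. CpG dinucleotides occurred 6.7 times per kb of desert, 12.6 times per kb in RS members and 23.2 times per kb in PRO members. Single RS members had a median GC content of 50.3% and 80% of them lay between 44.1% and 56.4%. A GC content of at least 60% was found in 237 RS members (2.74%) and 23 PRO members (4.89%).

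The share of desert under RS peaks was larger in sequence richer in GC. In tiles of 1 kb, RS peaks covered 0.0568% of the desert with a GC content under 35%, 0.394% at 35 to 40%, 1.48% at 40 to 45%, 5.26% at 45 to 50%, 9.98% at 50 to 55% and 10.3% at 55% or more. Tiles that held none of the 8 repeat families treated below without ORF2 and Alu gave 0.0532%, 0.366%, 1.21%, 3.63%, 6.98% and 8.97%. PRO peaks covered 0.00564% of the first class, 0.274% of the fifth and 1.55% of the last, so RS coverage was 36.5 times that of PRO in the fifth class and 6.61 times in the last. Sequence yield in ChIP-seq can itself change with GC content, and its part in these shares was not tested.

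**Figure D3:**
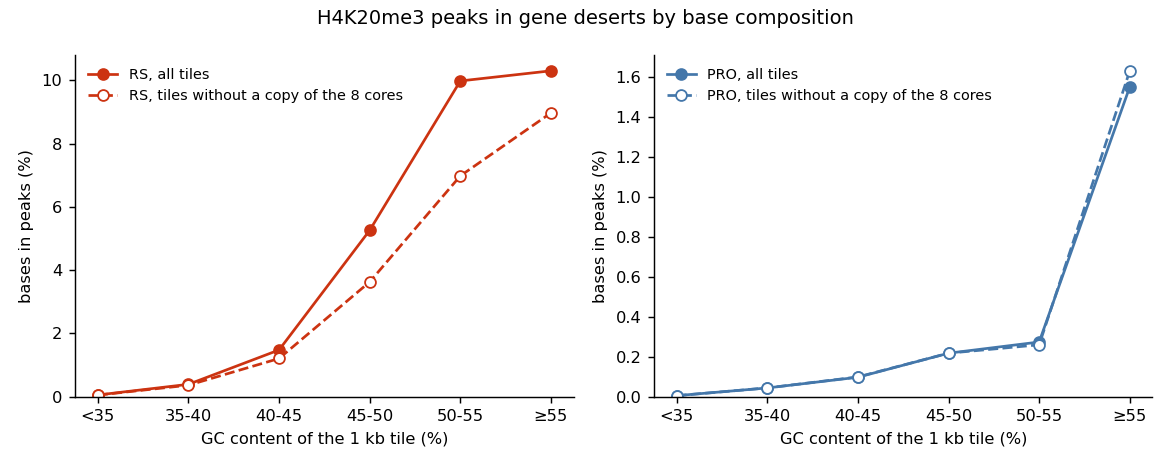
Share of desert bases under RS peaks (left, y axis, percent) and PRO peaks (right, y axis, percent, on a smaller scale) in classes of GC content of 1 kb tiles (x axis, percent), for all tiles (solid) and for tiles without copies of 8 repeat families (broken). RS coverage goes from 0.0568% under 35% GC to 10.3% at 55% or more, and PRO coverage from 0.00564% to 1.55%.

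Repeated sequence was more frequent in PRO than in RS members. A sequence of 75 bases that occurs more than once in the genome was present in 314 PRO gene desert peaks (65.6%) and 3425 RS gene desert peaks (39.1%), and in 50.3% of the other RS peaks. By position, 49.2% of the 75-base windows in PRO members, 10.1% of those in RS members and 3.32% of those in the desert were repeated. Reads from such windows cannot be placed at 1 site. Peaks that consisted mostly of repeated windows were 37.0% of PRO and 6.92% of RS members. RS members over a DiffBind region and those not over one held a repeated window about as often (38.5% and 39.4%), but 2.71% against 9.18% were mostly repeated. Of the RS members over a PRO peak, 75.5% held a repeated window. Tandem repeats made up 0.239% of the desert, 1.77% of RS member bases and 8.55% of PRO member bases. Without any peak that held a repeated 75-base sequence, the RS list had 32.3 times the number of PRO members and 54.0 times their length, and 29.7% of PRO members lay over an RS peak.

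Many RS gene desert peaks aligned with another RS gene desert peak. Of the 8762, 5660 (64.6%) aligned over at least 200 bases at 80% identity or more with another RS gene desert peak, as did 278 of the PRO members (58.0%) with another PRO member. A longer list offers more partners, so the shares of the 2 lists are not comparable. The share was not computed for desert sequence at large or for the other peaks, so it is not shown to be particular to these peaks. A family was built around the sequence with most matches, and its core, the part shared by at least 30% of its members, was searched for in the genome. Families were chosen from RS peaks, so the share of their desert copies under RS peaks is a description. For the same reason, RS and PRO shares in these families are not an even comparison. No repeat annotation was used, and the names L1, Alu and LTR12 rest on recognising the sequences, while families 2, 5, 8, 9 and 10 are left without a name.

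The largest family was the 5′ end of L1. Its core of 871 bp had 1802 copies in the desert, and RS peaks lay over 55.7% of them, PRO peaks over 0.499% and DiffBind regions over 28.4%. Of the 3777 copies on these chromosomes outside the desert, which were not used to build the family, RS peaks lay over 50.7% and DiffBind regions over 28.6%. A second L1 5′ end family (family 7, core 801 bp) had 839 desert copies, with RS peaks over 43.4% and PRO peaks over 0.358%. The cores of both made up 0.248% of the desert, and 47.6% of their bases lay in RS peaks, 38.6 times the share of the whole desert. They held 9.58% of all RS bases in the desert and 1.46% of the PRO bases. PRO peaks covered 0.44% of the bases of these cores, also above the 0.0748% of the whole desert. Outside the desert 41.5% of their bases lay in RS peaks. Of the RS gene desert peaks with the first core, 96.7% held a repeated 75-base window and 17.2% were mostly repeated. For family 7 the shares were 81.6% and 0.557%, against 39.1% and 6.92% of all RS gene desert peaks. Reads from such windows cannot be placed at 1 copy, so the coverage of single copies is uncertain there.

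The ORF2 part of L1, toward the other end of the element, was covered little more than the desert at large. The core of family 3, in L1 ORF2, had 12225 desert copies, of which 2.09% lay under RS peaks and 0.123% under PRO peaks. Of its bases 1.6% were in RS peaks, 1.3 times the share of the desert. In the average profile over 200 bp bins, centred on the middle of the L1 5′ core and read in the orientation of the core, RS coverage was highest at 52.8% 100 bp before the centre, 14.1% at 500 bp before it and 6.57% at 700 bp after it, and 0.187% at 3100 bp after it. Around the ORF2 core, coverage was 1.54% at 100 bp after the centre and had a separate maximum of 9.27% at 5300 bp before it, on the side of the 5′ end. The 2072 ORF2 copies with an L1 5′ core within 7 kb upstream had RS peaks over 2.65%, and the 10153 without one over 1.97%.

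**Figure D4:**
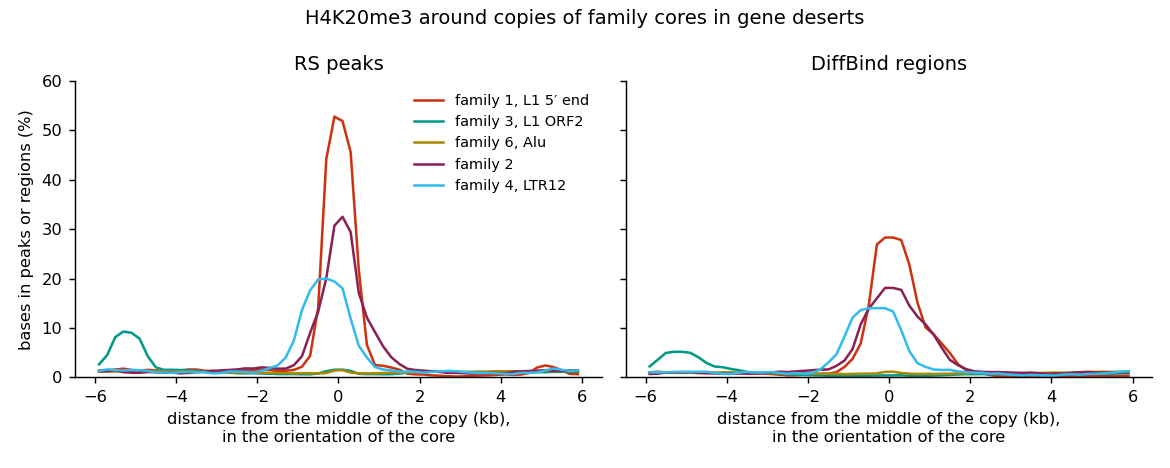
Share of bases in RS peaks (left) and DiffBind regions (right; y axes, percent) around the middle of desert copies of the cores of families 1, 2, 3, 4 and 6 (x axis, kb from the middle, in the orientation of the core, 200 bp bins). RS coverage reaches 52.8% at the L1 5′ end and 1.54% at ORF2, with a separate maximum of 9.27% on the negative side of ORF2.

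Coverage varied among the copies of the L1 5′ end. Copies of at least 800 bases lay under RS peaks in 70.2% of 867 cases, those of 600 to 800 bases in 45.9% of 789, those of 400 to 600 bases in 26.0% of 50, and those of 200 to 400 bases in 19.8% of 96. By identity to the core, the shares were 46.3% at 80 to 84% (203 copies), 54.5% at 84 to 88% (1212), 66.0% at 88 to 92% (374) and 15.4% above 92% (13). The last class held short copies, with a median of 303 bp against 750 to 850 bp in the others, and 42.9% of its 35 copies outside the desert lay under RS peaks.

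Copies of several further families also lay under RS peaks far more often than ORF2 or Alu. Family 2, with a core of 1167 bp and 2106 desert copies, had RS peaks over 34.4% and DiffBind regions over 18.6%. Family 5, with a core of 1281 bp, had only 296 desert copies, of which 48.3% lay under RS peaks but 9.8% under DiffBind regions. The LTR12 family had 995 desert copies with RS peaks over 22.9%, and 11.4% of its 1936 copies elsewhere. Families 8, 9 and 10 had RS peaks over 35.3% of 904, 22.2% of 621 and 42.1% of 216 desert copies. These shares count copies from 1 shared base. By bases, RS peaks covered 25.9% of the desert copies of family 2 and 36.7% of those of family 5. PRO peaks lay over at most 0.664% of the desert copies in any of the 10 families, all of them built from RS peaks. The Alu family was the exception beside ORF2, with RS peaks over 1.75% of 24436 desert copies.

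**Figure D5:**
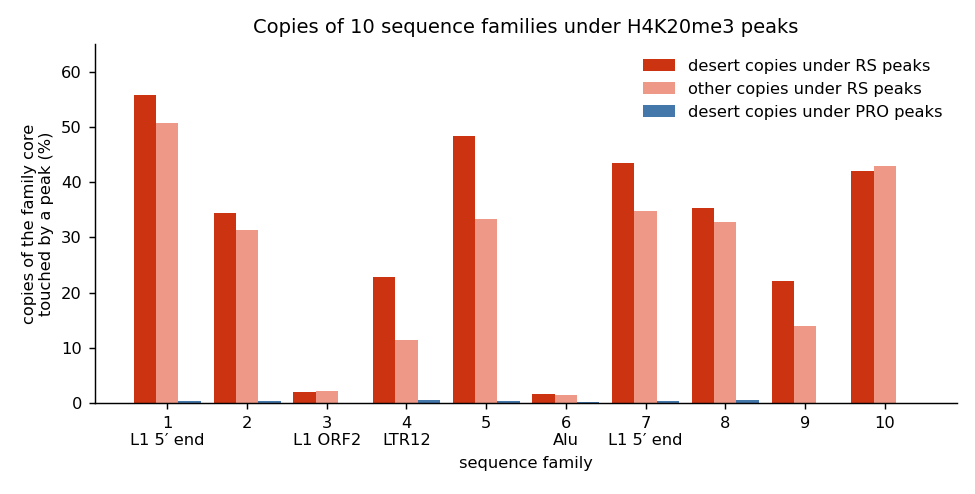
Share of core copies touched by a peak (y axis, percent) for the 10 largest sequence families (x axis), with bars for desert copies under RS peaks, for copies elsewhere on the same chromosomes under RS peaks and for desert copies under PRO peaks. L1 5′ ends and families 2, 5, 8 and 10 have RS peaks over 34.4% to 55.7% of their desert copies, whereas L1 ORF2 and Alu have 2.09% and 1.75%.

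Read from the peaks, the families accounted for a part of the RS list. RS gene desert peaks that held at least 100 bases of an L1 5′ core numbered 1124 (12.8%), those with another of the 8 cores without ORF2 and Alu 1337 (15.3%), those with ORF2 or Alu alone 573 (6.54%) and those with none 5728 (65.4%). In PRO the numbers were 10 (2.09%), 15 (3.13%), 56 (11.7%) and 398 (83.1%), for cores that were all taken from RS peaks. DiffBind regions lay over 41.2% of the RS peaks with an L1 5′ end, 38.8% of those with another core, 27.7% of those with ORF2 or Alu alone and 33.6% of those with none. The first share was above that of all RS gene desert peaks and below the 44.8% of the whole RS list. The 8 cores made up 0.799% of the desert and held 21.0% of its RS bases and 3.07% of its PRO bases. RS peaks covered 0.981% of the desert outside these cores.

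Across the 414 large deserts, those with more L1 5′ ends per Mb had somewhat more of their sequence in RS peaks, with a Spearman rho of 0.23 as a description over deserts that share their libraries. With the deserts ranked by L1 5′ ends per Mb and cut into 4 equal groups, the median RS share was, from the lowest group to the highest, 0.854%, 1.01%, 1.08% and 1.28%. With only the RS peaks that touched no such copy, the medians were 0.832%, 0.91%, 0.921% and 0.95% and the rho was 0.04. The GC content of a desert and its RS share had a rho of -0.05, although the peaks within it lay in its GC-rich sequence.

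Long non-coding RNA genes, the main genes left in the desert by the rule, covered 34.3% of it. They overlapped 2887 RS members (32.9%) and 105 PRO members (21.9%), and 1120 such genes held an RS member against 101 with a PRO member. RS peaks covered 1.15% of their bases, near the 1.23% of the whole desert. Among the 10 genes with most RS bases were ENSG00000288714 on chromosome 6 (31.8 kb, 5.0% of the gene), LINC02646 on chromosome 10 (23.8 kb, 8.83%), LINC02694 on chromosome 15 (23.4 kb, 4.24%) and SNHG14 on chromosome 15 (21.8 kb, 4.94%), the host of clustered small nucleolar RNAs of the imprinted Prader-Willi region. PRO peaks covered 0.601 kb of ENSG00000288714 and none of LINC02646, LINC02694 and SNHG14. The remaining 6 had between 14.2 and 19.8 kb in RS peaks, and at most 0.801 kb in PRO peaks.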

How the data were processed

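H4K20me3 ChIP-seq of IMR90 cells was analysed in 4 samples, 2 antibodies for each of PRO and RS. Per the submitters' processing notes and the study's methods, the authors trimmed single-end reads (Trim Galore 0.3.0), aligned them to hg19 (Bowtie2 2.1.0), called broad regions with SICER 1.1 in 200 bp windows against a ChIP of histone H4, and intersected the peaks of both antibodies. The DiffBind (1.8.3) list was made at a false discovery rate of 0.01. The deposited lists hold positions only, with no counts, score or direction, so each group is 1 list and no test was possible.

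Genes came from GENCODE 44 lifted to GRCh37, and sequence from GRCh37, whose autosomes have the coordinates of hg19. Lengths are end minus start as deposited. Overlap was counted from 1 shared base. Repeated 75-base sequences were exact matches on either strand. Tandem repeats were 200-base windows that matched themselves at 80% or more when shifted by 2 to 100 bases. Families came from an all-against-all megablast (BLAST+ 2.17.0, word size 28, at least 200 bases at 80% identity), and copies of a core within 100 bp were joined. Scripts used Python 3.11.15, numpy 2.4.6, pandas 2.3.3, scipy 1.17.1 and numba 0.67.0, and were tested on simulated intervals and sequence. The share of soft-masked bases was not computed, since the sequence used here carries no masking.

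The regions, the gene lists and the comparisons were chosen with earlier results of these data known. Named were, among deserts of at least 500 kb, the 10 with the highest RS share, the 5 with most PRO bases and the 5 longest, the 10 long non-coding RNA genes with most RS bases and the 10 longest members of each list. Sequences of the repeat families are not reported here. RASGRP1-THBS1, family 7 and the C4orf33-PCDH10 peaks as a group were named after their values were seen. Flanking genes were grouped by symbol. Alternatives moved the 100 kb distance, the overlap, the length minimum, the repeat length and the alignment limits, and left out repeated sequence, long non-coding RNA genes or deserts beside unknown runs.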

Additional observations from a re-analysis of the deposited data

How the results depend on the processing

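In all, 126 values of 11 results were computed under 18 alternatives, 1 of them (deserts beside large unknown runs left out) chosen after seeing the data. A share was judged by the 95% Wilson interval of its main value, which covers counting of peaks only, and other values by a factor of 1.5. By this measure 102 values stayed and 24 moved. No paired analysis was possible because the deposited lists are merged over both antibodies, and for the same reason no antibody could be left out. The share of RS members over DiffBind regions (35.0%) was 37.3%, 32.6% and 32.4% at distances of 50, 200 and 500 kb, 39.7% for peaks of at least 1000 bp and 24.9% when 50% of both regions had to overlap. PRO over RS (46.1%) was 61.8% for peaks of at least 1000 bp, 29.7% without repeated 75-base sequences and 27.3% at 50% of both. RS over PRO (2.33%) was 2.91% at 500 kb, 1.79% at 1000 bp, 0.918% without repeated sequence, 2.69% outside long non-coding RNA genes, 1.5% without deserts beside unknown runs, 1.75% at 50% of the member and 1.5% at 50% of both. The ratio of RS to PRO in number (18.3) was 30.9 at 1000 bp and 32.3 without repeated sequence. In length (16.5) it was 54.0 without repeated sequence and 27.9 without deserts beside unknown runs. With those deserts counted as elsewhere, PRO density in desert over elsewhere (0.637) was 0.33. The share of RS bases in the top 10 deserts (8.75%) was 19.3% at 500 kb, where fewer deserts remain. Repeats of 50 bases were found in 66.9% of RS members (39.1% at 75 bases). Shared sequence (64.6%) was 46.2% at 400 aligned bases and 30.5% at 90% identity. Other causes were not tested. The lists hold no depth, so a peak missing from PRO is one not called with both antibodies, not one shown to be absent.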

Other observations

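Small RNA genes in the desert were covered unevenly. RS peaks covered 4.8% of snoRNA bases, through 8 members over 9 SNORD115 genes of chromosome 15 and 1 U3 gene of chromosome 3. The 18 RS members in SNHG14 lay at chr15:25416401-25477201, in the part of the gene that holds the SNORD115 array, with a median length of 901 bp, a longest of 5601 bp and a median GC content of 59.2%. None of the 18 lay over a DiffBind region and SNHG14 held no PRO member. A repeated 75-base sequence was present in 6 of them, and 0 were mostly repeated.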
